A study of Homo sapiens with 6 samples.

Results

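The G alpha subunits of heterotrimeric G proteins were examined in REH cells in which the ETV6/RUNX1 fusion had been silenced. GNAZ and 9 paralogues (GNAI1, GNAI2, GNAI3, GNAO1, GNAQ, GNA11, GNA13, GNA15 and GNAS) were covered by 17 of the 34134 catalogue probes on the array, matched through the RefSeq accession of each probe. Of these 17 probes, 14 passed the filter against negative controls, at least 1 for each of the 10 genes, and 27490 of all 57176 probes passed it. GNAZ was chosen by its measured rise in the contrast described here, so its values are given as a description with no test, and the paralogues are the comparison. REH is a human B-cell precursor leukemia line that carries the ETV6/RUNX1 translocation and has lost its other ETV6 allele. The 3 knockdown arrays held RNA of REH cells transduced with a lentiviral short hairpin RNA against the ETV6 part of the fusion. The 3 control arrays held RNA of REH cells transduced with a hairpin labelled as non-targeting, which was an ETV6 hairpin that did not hit the fusion transcript. Cells of both groups carried GFP from the vector and were sorted on it. The knockdown rests on 1 hairpin in 1 cell line.

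G alpha subunits bind GTP when a receptor activates the heterotrimer, leave the beta and gamma subunits, act on effectors and switch off by hydrolysing the GTP. Subunits of the Gi family lower cAMP by inhibiting adenylyl cyclases, Gs raises it, and Gq activates phospholipase C beta. GNAZ encodes Gz, a member of the Gi family that is not a substrate of pertussis toxin, hydrolyses GTP slowly and is best known from neurons and platelets.

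Values are variance-stabilised intensities on the log2 scale, in which a difference of 1 equals a doubling for well-expressed probes. Between 45.7% and 50.9% of the probes of an array were well above background by the scanner flag. ETV6, the targeted gene, had 2 probes, of which 1 was retained. It measured 7.92, 8.05 and 8.37 on the control arrays and 7.50, 7.46 and 7.29 on the knockdown arrays, which gave -0.70 on the log2 scale (SE 0.14, limma adjusted p = 0.0513), and the arrays of the groups did not overlap. Under spike-in scaling the value was -0.35, and the adjusted p over 17 alternatives ran from 0.0436 to 0.291. The 5 retained probes of RUNX1, the other fusion partner, gave -0.26 to 0.03 with overlapping groups. Where the retained ETV6 probe lies relative to the fusion breakpoint was not determined. The paper reports silencing of the fusion in REH cells by western blot and RT-qPCR, in a result representative of independent biological replicates. Of the 14 B-cell precursor markers, 13 to 14 were above background on every array. Their summed linear level lay between 280190 and 285390 in control and between 305680 and 368260 in knockdown. None of their 19 retained probes was called. With the replicate number as a block 4 were called, all higher, beside 3.79% of all retained probes called. Groups did not overlap on 9 of the 19, beside 18.9% of all retained probes, and of these 9 RAG2 was lower in knockdown (-0.44). Of 5 measured monocyte and granulocyte markers, ELANE, S100A8 and S100A9 were not above background on any array, CD14 was above it on all 6 arrays with a log2 fold change of -0.13 (adjusted p = 0.680), and MPO, a granule enzyme, fell by 2.02 on the log2 scale (adjusted p = 0.00107). The summed level of that list, nearly all of it MPO, lay between 15186 and 16929 in control and between 3520 and 5314 in knockdown. The platelet markers PF4 and PPBP were not above background on any array, while ITGA2B and GP9 were above it on all 6, with log2 fold changes of -0.38 (adjusted p = 0.306) and -0.14 (adjusted p = 0.823). The neural markers GAP43 and TUBB3 were not above background on any array, while SNAP25 was above it on all 6, with -0.05 (adjusted p = 0.921). The part of these shifts in the results below was not tested. In such bulk RNA, fewer cells of a type and less RNA per cell cannot be told apart.

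GNAZ was higher on every knockdown array than on any control array. Before normalization its single spot read 227, 195 and 205 intensity units on control arrays 1, 2 and 3, and 1004, 531 and 650.0 units on knockdown arrays 1, 2 and 3. After normalization the log2 levels were 7.80, 7.49 and 7.47 in control and 9.73, 9.10 and 9.43 in knockdown. Replicate 1 was the highest array within each group, and the groups were separated by more than the range of either. The group means were 7.59 ± 0.19 (SD, n = 3) and 9.42 ± 0.31 (SD, n = 3), which gave a log2 fold change of 1.83 (SE 0.17), or 3.56-fold. By this measure GNAZ ranked 3 among the 27490 retained probes. The probe was well above background on all 6 arrays. Arrays of the same replicate number differed by 1.93, 1.61 and 1.96. Control replicate 3 was the only control array in the same slide row as the knockdown arrays, and within that row the log2 fold change of GNAZ was 1.95.

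**Figure D1:**
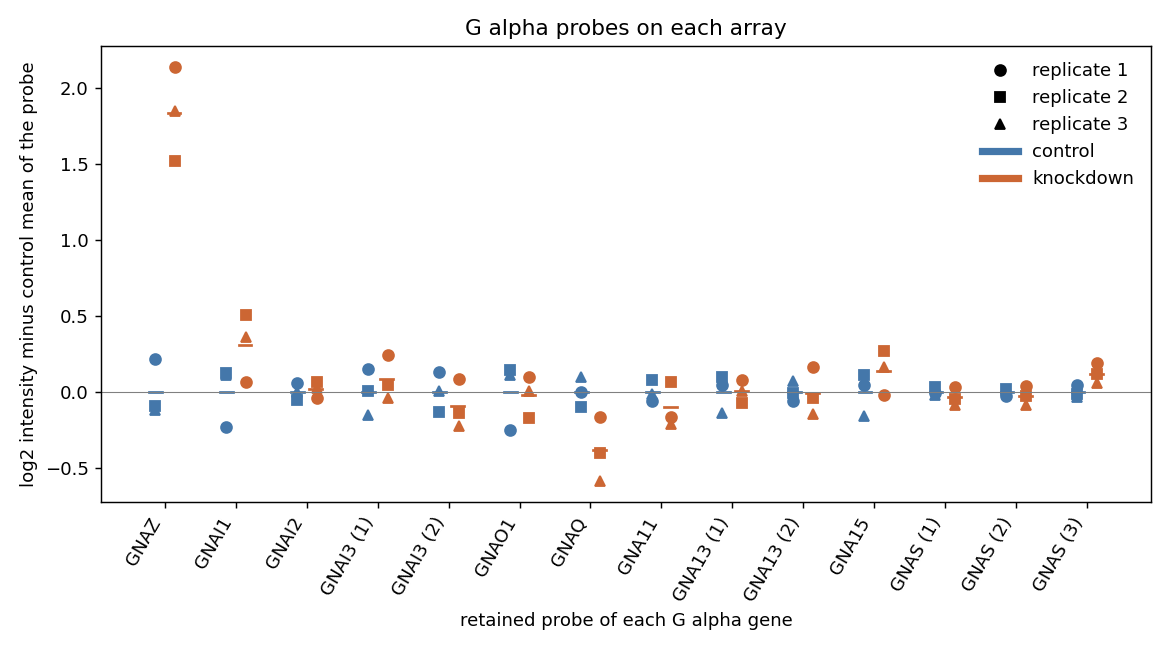
Log2 intensity of each retained probe of the 10 G alpha genes on each array, minus that probe's own control mean. Blue marks control and orange knockdown, the symbol gives the replicate, bars give group means, and numbers in brackets separate probes of 1 gene. The knockdown arrays of GNAZ lie between 1.52 and 2.14 above its control mean, and the next highest array of any member, knockdown replicate 2 on GNAI1, lies 0.50 above the control mean of its probe.

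None of the 13 retained paralogue probes was called at an adjusted p under 0.05 in limma (1.74% of all retained probes were called, 478 of 27490), and 1 reached an unadjusted p under 0.05. Their log2 fold changes ran from -0.39 to 0.31 with a median of -0.0084, beside a median of -0.0015 over all retained probes. A total of 6 were higher and 7 lower in knockdown. Groups did not overlap for 2 of the 13, beside 18.9% of all retained probes. The upper bounds of the 95% intervals of the paralogues reached 0.66 at most. With the replicate number as a block, 3.79% of all retained probes were called and again none of the paralogue probes.

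**Figure D2:**
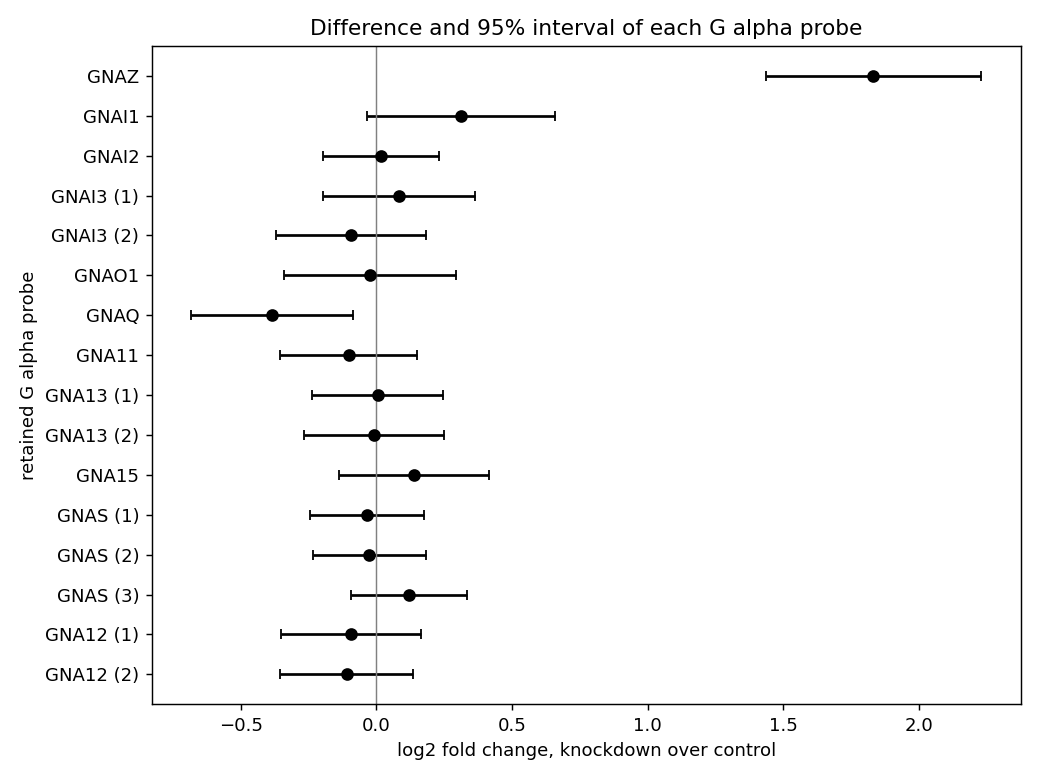
Log2 fold change, knockdown over control, of the 14 retained member probes and the 2 retained GNA12 probes. Points are limma estimates from 3 arrays a group and bars are 95% intervals. The GNAZ estimate of 1.83 is a description, since the gene was chosen by it, and the other estimates lie between -0.39 and 0.31.

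The nearest relatives of GNAZ are the Gi and Go subunits, covered by 5 retained probes. GNAI1, a cyclase-inhibiting subunit, measured 8.85, 9.21 and 9.20 in control and 9.16, 9.59 and 9.45 in knockdown, each the mean of 5 spots. The groups overlapped, since knockdown replicate 1 lay below control replicates 2 and 3. The log2 fold change was 0.31 (SE 0.15, 95% interval -0.04 to 0.66, limma adjusted p = 0.455). Each knockdown array was higher than the control array of the same number, by 0.30, 0.38 and 0.25, and the adjusted p with the replicate block was 0.126.

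GNAI2, the Gi subunit best known from lymphoid cells, measured 15.69, 15.58 and 15.63 in control and 15.59, 15.70 and 15.66 in knockdown. The arrays of the groups lay among each other, with a log2 fold change of 0.02 (95% interval -0.20 to 0.23, adjusted p = 0.958). For GNAI3, which shares the same cyclase-inhibiting role, the 2 probes gave log2 fold changes of 0.08 (adjusted p = 0.829) and -0.09 (adjusted p = 0.804), of opposite sign and each within its SE of 0.12. The second of these turned positive under spike-in scaling.

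GNAO1 encodes Go, the abundant G alpha subunit of neurons. Its 1 retained probe was dim, at 6.24, 6.63 and 6.60 in control and 6.59, 6.32 and 6.50 in knockdown, with a log2 fold change of -0.02 (95% interval -0.34 to 0.29, adjusted p = 0.962). Control replicate 1 and knockdown replicate 2 were the low arrays and the groups overlapped. The other 2 GNAO1 probes were removed by the filter, being well above background on 0 of 6 and 1 of 6 arrays.

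Among the Gq subunits, GNAQ showed the lowest estimate of all members. It measured 9.11, 9.02 and 9.22 in control and 8.95, 8.71 and 8.53 in knockdown. All knockdown arrays lay below all control arrays, with replicate 1 closest and replicate 3 furthest apart. The log2 fold change of -0.39 (SE 0.13, 95% interval -0.68 to -0.09) had an unadjusted p of 0.0176 and an adjusted p of 0.255 in limma, and 0.166 with the replicate block, so GNAQ was not called. Under spike-in scaling the estimate was -0.03. GNA11, its close paralogue and likewise an activator of phospholipase C beta, gave -0.10 (95% interval -0.36 to 0.15, adjusted p = 0.756), with overlapping groups. GNA15, the Gq family subunit largely restricted to hematopoietic cells, measured 11.17, 11.23 and 10.96 in control and 11.10, 11.39 and 11.28 in knockdown, which gave 0.14 (95% interval -0.14 to 0.41, adjusted p = 0.691). The groups again overlapped.

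GNA13 is known for restraining germinal center B cells. Its 2 probes gave log2 fold changes of 0.0048 (95% interval -0.24 to 0.25, adjusted p = 0.990) and -0.01 (95% interval -0.27 to 0.25, adjusted p = 0.983). On the brighter probe the pairs ran in both directions, by 0.23, -0.03 and -0.22.

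GNAS, which encodes the cyclase-stimulating Gs subunit and several other products of an imprinted locus, was covered by 4 probes. The 2 probes of its main transcripts varied least among arrays. The first measured 16.48, 16.51 and 16.46 in control and 16.51, 16.44 and 16.40 in knockdown, and their log2 fold changes were -0.03 and -0.03 (95% intervals -0.24 to 0.17 and -0.24 to 0.18, adjusted p = 0.912 and 0.937). Both estimates turned positive under spike-in scaling. A probe of the NESP55 transcript, whose product is a neuroendocrine secretory protein and not a G alpha subunit, measured 6.23, 6.17 and 6.15 in control and 6.38, 6.30 and 6.24 in knockdown. The groups did not overlap but differed by 0.12 only (95% interval -0.09 to 0.33, adjusted p = 0.656). The fourth probe, A_24_P168581, was removed by the filter. It read 5.31, 5.23 and 4.96 in control and 6.76, 5.40 and 5.19 in knockdown, so that 1 array stood apart. On that array its local background was 53.0 intensity units, against 30.0 to 37.0 on the others.

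Of the 6 G alpha genes outside the member list, GNA12, of the same family as GNA13, was measured by 2 retained probes, with log2 fold changes of -0.09 (adjusted p = 0.786) and -0.11 (adjusted p = 0.729), both positive under spike-in scaling. GNA14, a Gq family subunit, and the transducins and gustducin (GNAT1, GNAT2 and GNAT3) of photoreceptors and taste cells had no retained probe, and GNAL had no matched probe. On GNAT2 1 array, knockdown replicate 3, was at 6.99, while the other 5 lay between 5.13 and 5.71.

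**Figure D3:**
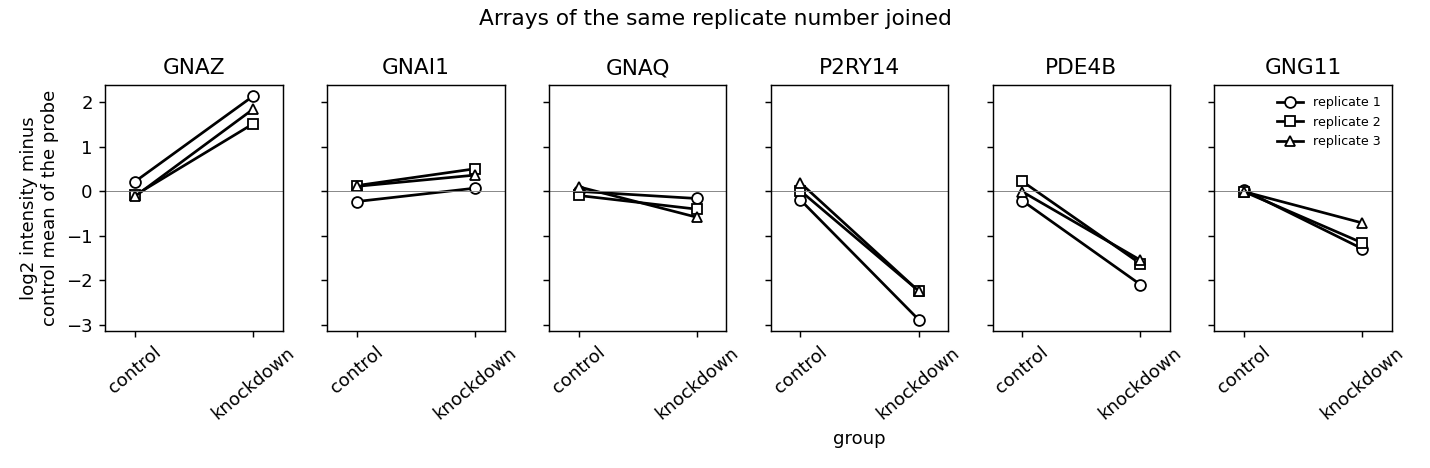
Log2 intensity minus the probe's control mean for GNAZ, GNAI1 and GNAQ and for P2RY14, PDE4B and GNG11, with arrays of the same replicate number joined. GNAZ rose by 1.61 to 1.96 in the 3 pairs, while the 3 signalling genes on the right fell in each pair.

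The other components of G protein signalling were described from lists of 158 genes, of which 106 had 130 retained probes. Of these 130 probes, 6 were called, all 6 lower in knockdown, beside 1.28% of all retained probes called lower. The 6 calls were 4.62% of the list probes, and the median log2 fold change of the list probes was 0.04. The lists were written with earlier results of these data known, so these shares are a description. With the replicate block 12 were called, 10 lower and 2 higher, beside 3.79% of all retained probes (668 lower and 373 higher). With the slide row as a term the calls of P2RY14 and PDE4B were kept and the other 4 lost. Under spike-in scaling, which shifted every retained probe up by nearly the same amount and their median to 0.35, 12 were called as well, but 9 of them higher and 3 lower, and over all retained probes the split changed from 126 higher and 352 lower to 909 higher and 160 lower. Of the 6 calls, those of P2RY14, PDE4B and RGS1 were kept under that scaling. Among the probes named, the adjusted p there followed the size of the fold change and not the scatter of the probe. Calls kept, lost or made under spike-in scaling therefore reflect size alone. The 9 higher calls included ADCY7 and PTGER1, which were retained through the knockdown arrays alone.

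Receptors that signal mainly through the Gi family, and so could feed Gz, had 9 retained probes of 9 genes out of 25 genes listed, and 1 was called. P2RY14, the receptor for UDP-sugars, measured 9.56, 9.76 and 9.94 in control and 6.86, 7.51 and 7.50 in knockdown. All knockdown arrays were far below all control arrays, and knockdown replicate 1 was lowest. The log2 fold change was -2.46 (SE 0.19, limma adjusted p = 0.00107), and the probe was called under each of 17 alternatives, with an adjusted p of 0.0135 at most. The median of the list was 0.17.

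Among the readers and phosphodiesterases of cAMP, the messenger that Gz and Gs regulate, 2 of 29 retained probes were called, both lower. PDE4B, a phosphodiesterase that degrades cAMP in leukocytes, measured 8.44, 8.88 and 8.64 in control and 6.55, 7.02 and 7.10 in knockdown, without overlap. Its log2 fold change was -1.76 (SE 0.17, adjusted p = 0.00268), and it too was called under each of 17 alternatives, with an adjusted p of 0.0364 at most. PRKAR2B, a regulatory subunit of protein kinase A, fell by 0.74 on the log2 scale on 1 probe (SE 0.12, adjusted p = 0.0277) and gave -0.51 on the other, which was called only with the block (adjusted p = 0.115 without and 0.0296 with it). The first call was lost without control replicate 1, 2 or 3 (adjusted p = 0.0555, 0.139 and 0.110) and without knockdown replicate 3 (adjusted p = 0.124). Under spike-in scaling the value was -0.38 (adjusted p = 0.259). None of the 6 retained adenylyl cyclase probes was called. ADCY7 was not well above background on any control array and was retained through the knockdown arrays alone, which read 6.75, 6.33 and 6.18. ADCY6 gave -0.23 (adjusted p = 0.549), which turned positive under spike-in scaling.

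Of the subunits that accompany G alpha, none of 5 beta probes and 1 of 10 gamma probes was called. GNG11, a gamma subunit, measured 14.32, 14.28 and 14.28 in control and 12.997, 13.13 and 13.58 in knockdown. The control arrays were close together, and all knockdown arrays lay below them with replicate 3 nearest. The log2 fold change was -1.06 (SE 0.15, limma adjusted p = 0.0148), and the call was lost without control replicate 1, 2 or 3 (adjusted p = 0.0510, 0.0719 and 0.0584) or knockdown replicate 2 (adjusted p = 0.0770). Under spike-in scaling it was -0.71 (adjusted p = 0.0718). Within the slide row of the knockdown arrays, which held control replicate 3 as its 1 control array, the value was -1.05, with the call lost (adjusted p = 0.227, where the lone control is assumed to vary like the other group). With the slide row as a term the adjusted p was 0.149. Of the beta subunits, GNB4 gave -0.33 (adjusted p = 0.286), which was 0.03 under spike-in scaling, and GNB1 gave 0.16 (adjusted p = 0.649).

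The RGS proteins hasten GTP hydrolysis by G alpha subunits, and 1 of their 14 retained probes was called. RGS1, which acts on Gi and Gq subunits in B cells, measured 10.33, 9.77 and 9.76 in control and 9.07, 8.47 and 8.74 in knockdown. Replicate 1 was the highest array in each group, as for GNAZ, but the groups were ordered the other way. The log2 fold change was -1.19 (SE 0.20, adjusted p = 0.0286), and the call was lost without control replicate 1, 2 or 3 (adjusted p = 0.0555, 0.0785 and 0.0623) or knockdown replicate 2 or 3 (adjusted p = 0.109 and 0.130). RGS16, an RGS protein that acts on Gi and Gq subunits and was picked after its values were seen, gave 1.07 (SE 0.49, adjusted p = 0.435) and 0.43 (adjusted p = 0.572) on 2 probes. Its groups overlapped on both, and knockdown replicate 1 was the highest array, at 10.22 on the first probe against 8.52 and 8.13 on the other knockdown arrays. Both RGS16 probes were called under spike-in scaling alone (1.42 at limma adjusted p = 1.9e-06 and 0.79 at adjusted p = 0.0376). These calls reflect the size of the scaled value and not the scatter among arrays. PDE4B, with a main SE of 0.17, had nearly the same adjusted p there (2.3e-06 at -1.41) as the first RGS16 probe. Among the proteins described as regulators, effectors or binding partners of Gz, 1 of 8 retained probes was called. PRKCA, the protein kinase C that phosphorylates Gz, fell by 0.63 on the log2 scale (SE 0.11, adjusted p = 0.0347). Leaving out any 1 array ended that call, with adjusted p from 0.0528 without knockdown replicate 1 to 0.148 without control replicate 2, and under spike-in scaling the value was -0.28 (adjusted p = 0.369). RGS19, of the RGS subfamily that acts on Gz, gave 0.30 (adjusted p = 0.311), while RGS17 and RGS20 of that subfamily had no retained probe.

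**Figure D4:**
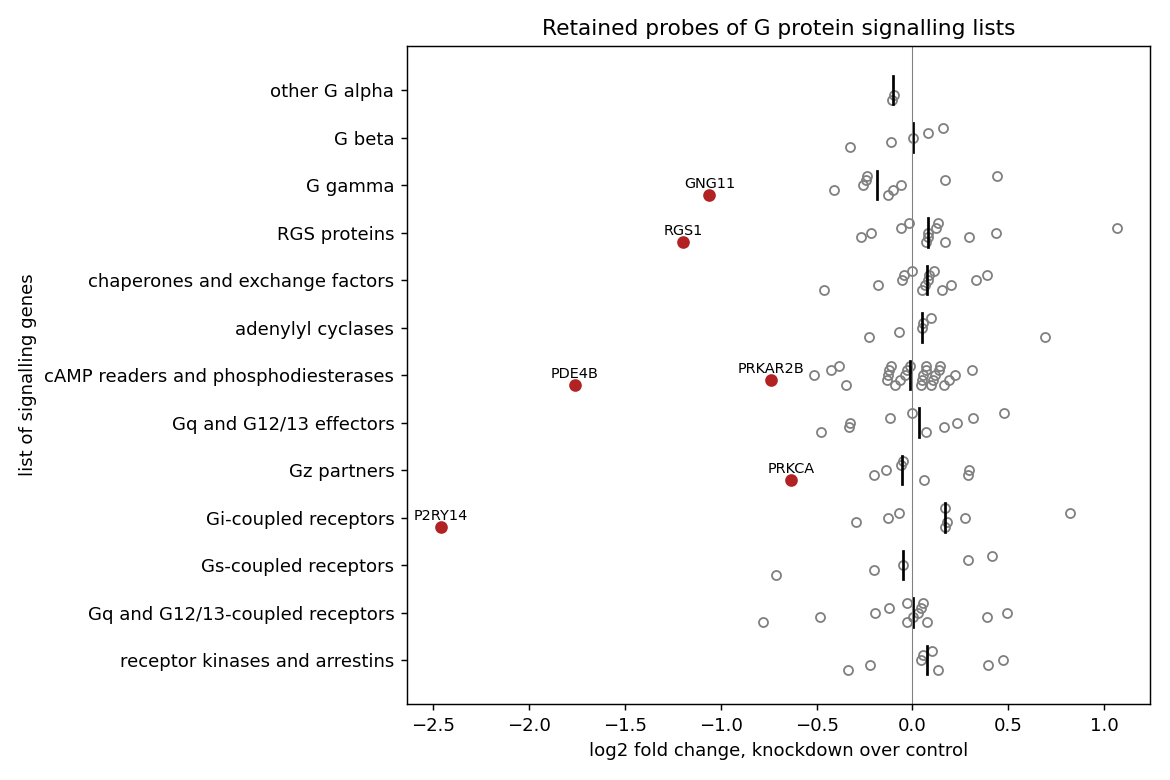
Log2 fold change, knockdown over control, of every retained probe in 13 lists of G protein signalling genes. Filled red points were called at an adjusted p under 0.05, open points were not, and black bars mark list medians. The 6 called probes all lie below zero, between -2.46 and -0.63.

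No probe was called in the other lists. Spike-in scaling raised all values nearly alike, and scaled values are given where the move was large against the value. Of the chaperones and exchange factors, DAPK1, a kinase that the list holds although it is neither a chaperone nor an exchange factor, gave -0.46 (limma adjusted p = 0.0532, and 0.0445 with the replicate block, with a spike-in scaled value of -0.11) and GPSM1, a dissociation inhibitor for Gi subunits, gave 0.33 (adjusted p = 0.297, and 0.68 spike-in scaled). Of the Gq and G12/13 effectors, the guanine nucleotide exchange factor ARHGEF1 gave 0.48 (adjusted p = 0.165, and 0.0441 with the block, with a spike-in scaled value of 0.83 at adjusted p = 0.0246) and KALRN, another such factor, gave -0.48 (adjusted p = 0.334, and -0.13 spike-in scaled). Of the Gs-coupled receptors, the prostacyclin receptor PTGIR, well above background on 2 of 3 knockdown arrays, gave -0.71 (adjusted p = 0.0535, and 0.0164 with the block). Its value was -1.35 with processed intensities (adjusted p = 0.0469) and -0.36 spike-in scaled, and the probe was called with the intensity trend and robust prior (adjusted p = 0.0463). In the same list the prostaglandin receptor PTGER4 gave 0.29 (adjusted p = 0.322, and 0.64 spike-in scaled). Of the receptors for Gq and G12/13, the prostaglandin receptor PTGER1 was well above background on 1 of 3 control arrays and retained through the knockdown arrays alone, which read 6.14, 6.17 and 6.46, and the lysophosphatidic acid receptor LPAR6 gave -0.78 (adjusted p = 0.183, and 0.0217 with the block, with a spike-in scaled value of -0.43). Of the receptor kinases, GRK6 gave 0.47 (adjusted p = 0.208, and 0.0390 with the block, with a spike-in scaled value of 0.82 at adjusted p = 0.0264) and GRK5 gave -0.33 (adjusted p = 0.251), which was 0.02 under spike-in scaling.

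Replicate 1 stood apart on many probes, and this difference was not used to choose GNAZ. Beside the group, 5.69% of all retained probes differed between replicate 1 and replicates 2 and 3 (1563 of 27490, 1005 higher and 558 lower). None of the 14 retained member probes was called. GNAZ was higher in replicate 1 by 0.39 (SE 0.11, limma adjusted p = 0.0923), and GNAI1 differed by -0.36 (SE 0.09, adjusted p = 0.0619), with replicate 1 the lowest array of each group.

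On chromosome 22 GNAZ lies among immunoglobulin lambda segments, RSPH14, RAB36 and BCR in the RefSeq gene table of GRCh38.p14. Of the 5 genes on each side, RSPH14, a radial spoke protein, and RAB36, a small GTPase, had no retained probe, and BCR, a GTPase-activating protein, had 3. The BCR probes gave log2 fold changes of 0.31, 0.33 and 0.53, with limma adjusted p values of 0.305, 0.225 and 0.0605, and on each of these probes of 1 gene all knockdown arrays lay above all control arrays, beside 18.9% of all retained probes without overlap. None passed the threshold. The third was called under 3 of 16 alternatives, which were normexp and quantile normalization, spike-in scaling and the intensity trend with robust prior, with an adjusted p of 0.0138 at the lowest.

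The pattern of GNAZ over the 6 arrays was most like that of RANBP3L (Pearson r = 0.998), EMP3 (0.995), KIF26A (0.993), TENT5C (0.990) and IKZF2 (0.988), among 1052 retained catalogue probes that varied by at least 1 on the log2 scale. All 5 were higher in knockdown, a direction set by picking them for likeness to GNAZ. Their log2 fold changes ran from 0.76 for KIF26A to 1.36 for IKZF2. RANBP3L was retained through the knockdown arrays alone and was well above background on 1 of 3 control arrays. The 6 points share their group, which sets most of such an r. After the group means were removed, the closest included IFITM1 (0.994), RHOQ (0.991), SGSH (0.991) and DUSP26 (0.988). On these 4, as on GNAZ, replicate 1 was the highest array of each group, an order that follows from how they were picked. The log2 fold change between groups was 0.40 for IFITM1, -0.37 for RHOQ, -0.83 for SGSH and -1.72 for DUSP26, and none of the 4 was called (limma adjusted p = 0.537, 0.535, 0.180 and 0.137). With the replicate block SGSH and DUSP26 were called (adjusted p = 0.0132 and 0.00322). DUSP26 was also called under spike-in scaling and without knockdown replicate 1, and IFITM1 under spike-in scaling (0.76, adjusted p = 0.0486).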

How the data were processed

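RNA of 6 REH cultures, described as biological triplicates of each group, was hybridised to 6 one-color Agilent arrays of 1 slide and scanned once. The authors deposited scanner intensities made with Feature Extraction 10.7.1.1, with an array design built on hg19, and a table of normalized log2 values (VSN, background subtraction and a filter against negative controls). Here the deposited median spot intensity was normalized anew with a variance-stabilising model (least trimmed squares quantile 0.9), which was written for this work and understates the change of dim probes. Outlier spots were left out, spots of a probe were averaged, and values correlated with the deposited log2 values at r = 0.999 to 1.000. A probe was retained when it exceeded 1.1 times the 0.95 quantile of 308 negative control spots, taken on the normalized scale, on 60% or more of the arrays in 1 of the groups. Probes were named by RefSeq accession (25728 of 34134 catalogue probes matched a symbol). Groups came from the labels and were compared by fits in limma 3.58.1 (R 4.3.3), two-sided, with Benjamini-Hochberg adjustment over all retained probes. On simulated data, 80% of 200 changed probes among 27490 were recovered, and 5.88% of the calls fell on unchanged probes. Recovery of changes as small as the paralogue estimates was not tested. The replicate numbers, given in the labels, paired the samples, since deviations from the group means correlated at 0.426, 0.287 and 0.204 in the 3 pairs. Between replicates 2 and 3 the mismatched pairs reached 0.187 and 0.17, so that these replicates were hardly told apart. Precision is limited by 3 arrays a group. Members, lists and tests were chosen with earlier results of these data known. Named were all G alpha genes and, in each list, the called probes (up to 3 in each direction) or the 2 genes of lowest p, the 5 RefSeq neighbours on each side of GNAZ and the 5 symbols closest to it by Pearson r, of which 1 is not reported here. Normalization, scaling, filter, variance prior, block, slide row and single arrays were varied.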

Additional observations from a re-analysis of the deposited data

How the results depend on the processing

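GNAZ was higher in knockdown under each of 17 alternatives. This is a description only, since GNAZ was chosen by this rise and the alternatives reuse the same arrays. Filter, variance prior, block and averaging by gene could not change the estimate of its single probe. The log2 fold change of GNAZ was 2.19 under spike-in scaling, which shifted all retained probes up nearly alike and their median to 0.35. It was 1.64 with normexp and quantile normalization, 2.06 with processed intensities and 1.68 to 1.99 when 1 array was left out. None of the paralogue probes was called under any alternative, but small estimates changed sign. Spike-in scaling turned small negative estimates by that common shift alone, namely those of GNAI3 (0.26), GNAO1 (0.33), GNA11 (0.25), GNA13 (0.34), GNAS (0.32 and 0.33), GNA12 (0.26 and 0.24), GNB4 (0.026), ADCY6 (0.13) and GRK5 (0.019). GNA13 also turned to 0.0102 with processed intensities and GNAS to 0.0214 with normexp and quantile normalization. Leaving out 1 array gave -0.0102 to 0.046 for GNAI2, -0.15 to 0.0509 for GNAO1, -0.064 to 0.0523 and -0.0949 to 0.0612 for GNA13, and -0.0571 to 0.0045 for the second GNAS probe.

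Over all retained probes, 478 calls (126 higher) became 1069 under spike-in scaling (909 higher), 224 without the filter, 1041 with the replicate block, 227 with the slide row as a term, 199 in slide row 2 alone (chosen after seeing the data) and 191 to 553 without 1 array. The 6 calls in the signalling lists became 3 with processed intensities (P2RY14 and PDE4B kept, and PTGIR added). Under spike-in scaling they became 12, of which 9 were higher, with 3 of the 6 kept and GNG11, PRKAR2B and PRKCA lost. Calls under that scaling amount to a cutoff on the size of the fold change. The 6 calls became 2 without the filter, 12 with the replicate block, 2 with the slide row as a term and 2 to 6 without 1 array. The block changed no call of a G alpha probe and ended none of the 6 calls in the signalling lists. For replicate 1, 1563 calls became 910 with processed intensities, 2627 with an intensity trend and robust prior, and 344 to 789 without 1 array. The causes were not tested. Slide row and group partly coincide, since row 1 held controls only. Dim probes (GNAO1, NESP55) limit what can be seen there.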
